A study of Homo sapiens with 16 samples.

Results

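The genes of the cyclin-dependent kinase (CDK) inhibitor family were followed in LNCaP cells, an androgen receptor-positive human prostate cancer line, with and without p53 and with and without inhibition of the kinase GCN2. The family was taken as the 7 CIP/KIP and INK4 genes, chosen by symbol among the 62754 genes counted. CDKN1A, CDKN1B and CDKN1C form the CIP/KIP branch (3 genes), and CDKN2A, CDKN2B, CDKN2C and CDKN2D form the INK4 branch (4 genes). Total RNA was sequenced in paired ends from 16 libraries, 4 in each of 4 groups. These were p53 KO cells, edited by CRISPR, given GCN2iB, p53 KO cells given vehicle (DMSO), WT cells given GCN2iB and WT cells given vehicle. GCN2iB, a small-molecule inhibitor of GCN2, was used at 5 µM for 48 h, in cells plated at 350000 per well and left to attach before treatment. All 4 groups share the LNCaP background and a medium of phenol-free RPMI with serum. Nothing in the labels tells if the p53 KO line is 1 clone or a pool, or if the replicates came from different cultures. P-values therefore reflect only how these libraries spread, which may be technical.

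CDK inhibitors hold cells in G1 by blocking the kinases that phosphorylate the retinoblastoma protein. INK4 proteins bind CDK4 and CDK6 and keep D-type cyclins off them, while CIP/KIP proteins bind cyclin and kinase together, CDK2 complexes above all. CDKN1A encodes p21, the classical transcriptional target of p53, whereas CDKN2D encodes p19INK4d, whose transcript is known to vary through the cell cycle. GCN2 senses uncharged tRNA and phosphorylates eIF2, which slows translation and favours synthesis of the transcription factor ATF4.

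The genes lie at 6 places in the genome (GRCh38, GENCODE release 29). CDKN1A (ENSG00000124762) spans chromosome 6, 36676460 to 36687339, on the forward strand. CDKN1B (ENSG00000111276), which encodes p27, spans chromosome 12, 12715058 to 12722371, also forward. CDKN1C (ENSG00000129757), which encodes p57 and is imprinted, lies on the reverse strand of chromosome 11 at 2883213 to 2885773. CDKN2A (ENSG00000147889, 21967753 to 21995301) and CDKN2B (ENSG00000147883, 22002903 to 22009363) are neighbours on the reverse strand of chromosome 9. CDKN2C (ENSG00000123080), which encodes p18INK4c, lies forward on chromosome 1 at 50960745 to 50974633. CDKN2D (ENSG00000129355) lies on the reverse strand of chromosome 19 at 10566462 to 10569059. Counts were made over whole genes, so p16INK4a and p14ARF, both products of CDKN2A, cannot be told apart.

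The promoters of CDKN1A and CDKN2D are printed because these genes are set against each other in the results. Each run holds the 250 bases before a start annotated by RefSeq (GRCh38.p14), 5′ to 3′ on the gene's own strand. These starts differ from the ends of the GENCODE spans given above. The CDKN1A window lies inside the GENCODE span of its gene, and the CDKN2D window overlaps its span in part. Capitals mark GC boxes (GGGCGG) and CCAAT boxes (CCAAT) on either strand. The CDKN1A window is chr6:36678464-36678713 on the forward strand, and the CDKN2D window is chr19:10568980-10569229 on the reverse strand.
CDKN1A: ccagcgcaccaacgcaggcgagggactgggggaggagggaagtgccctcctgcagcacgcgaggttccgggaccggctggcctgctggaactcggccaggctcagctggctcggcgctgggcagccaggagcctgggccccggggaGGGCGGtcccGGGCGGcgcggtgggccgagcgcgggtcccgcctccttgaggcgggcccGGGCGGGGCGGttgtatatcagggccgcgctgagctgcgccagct
CDKN2D: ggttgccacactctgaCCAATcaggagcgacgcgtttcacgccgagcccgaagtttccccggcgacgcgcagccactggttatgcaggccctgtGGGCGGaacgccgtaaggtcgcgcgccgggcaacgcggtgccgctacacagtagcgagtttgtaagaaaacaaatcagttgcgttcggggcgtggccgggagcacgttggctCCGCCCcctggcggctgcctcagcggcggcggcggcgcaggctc

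The CDKN1A window held 4 GC boxes, the last pair overlapping by 1 base, and 0 CCAAT boxes. The CDKN2D window held 2 GC boxes and 1 CCAAT box. Of 35116 promoter windows of the same length, 42.6% held a GC box and 32.0% a CCAAT box, so neither motif is rare. E2F sites (TTTCCCGC or TTTGGCGC, either strand), present in 1.93% of windows, were found in 0 windows of the family, and p53 half-sites, present in 5.57%, likewise in 0. These counts describe only the letters in the windows, and the letters taken as a p53 half-site are not printed here. Sequence outside the windows was not searched. A count of 0 therefore does not tell if CDKN1A, or another member, has a p53 or E2F site elsewhere. A window was available for 6 of the 7 genes, with 3 starts for CDKN2C and 2 for CDKN2A. The 3 CDKN2C windows held 5, 1 and 0 GC boxes, and their G and C content was 77.2%, 48.8% and 45.6%, against 67.6% for CDKN2D and 76.4% for CDKN1A.

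Library totals ran from 17418072 to 39915685 counts, and all 7 genes passed the filter on low counts. Of 24 p53 target genes listed besides CDKN1A, 23 were lower and 0 higher in p53 KO than in WT cells, under either treatment. Among all tested genes, 12.1% were lower under vehicle and 11.2% under GCN2iB. ATF4 was 1.77-fold lower with GCN2iB in p53 KO cells and 2.33-fold lower in WT cells. The 12 luminal prostate markers together stood at 6667 to 8311 CPM (counts scaled to library totals adjusted by TMM), against 3.83 to 9.44 CPM for 5 basal markers, 19.9 to 29.7 CPM for 7 stromal markers and 0 to 1.45 CPM for 6 immune and blood markers. PTPRC, which marks leukocytes, was at 0 counts in p53 KO vehicle and WT vehicle. LYZ, the lysozyme gene and the one immune marker with enough counts to test, was higher under vehicle at 0.84 CPM in p53 KO cells, against 0.027 CPM in WT cells (edgeR, adjusted p = 4.95e-05), and under GCN2iB at 0.70 CPM in p53 KO cells, against 0.068 CPM in WT cells (0.000919). The summed basal markers were higher in p53 KO cells (7.54 to 9.44 CPM) than in WT cells (3.83 to 5.15 CPM). The luminal markers were lower with GCN2iB, where 6 of 12 fell in p53 KO cells (8.71% of all tested genes) and 8 in WT cells (13.6%). The part of these markers in the results was not tested. Some of the 16 libraries stood apart from their groups, with no threshold set for this. On the first principal component (38.3% of variance), WT GCN2iB replicate 4 was at -13.8, nearer to p53 KO than the other WT GCN2iB libraries (-21.9 to -19.6). On the second (25.2%), p53 KO GCN2iB replicate 4 was at -25.9, against -11.7 to -7.39 for the other p53 KO GCN2iB libraries. WT vehicle replicate 1 was at -13.3 on the first and 24.1 on the second component, against -17.5 to -17.3 and 8.29 to 15.0 for the other WT vehicle libraries, and leaving it out changed no edgeR call in the family.

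CDKN1A was the most abundant family transcript in WT cells and a minor one in p53 KO cells. Its level in p53 KO cells was 39.9, 38.5, 41.5 and 51.6 CPM with GCN2iB (replicates 1 to 4), against 35.4, 36.1, 35.4 and 43.1 CPM with vehicle. In WT cells it was 483, 501, 498 and 375 CPM with GCN2iB, against 247, 276, 277 and 298 CPM with vehicle. No p53 KO library came near a WT library, and within WT cells each GCN2iB library exceeded each vehicle library, the lowest being replicate 4. Within p53 KO cells the groups overlapped. An antisense transcript, DINOL, shares 146 bases (4.8%) of CDKN1A exons but drew 29 counts over all libraries, against 105083 for CDKN1A. The strand setting of the counting is not given in the sources used here, so reads of overlapping antisense genes may be mixed.

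CDKN1B, whose protein p27 is controlled largely by degradation, varied least among the well-expressed members. It stood at 126, 126, 128 and 134 CPM in p53 KO GCN2iB, against 117, 110, 108 and 115 CPM in p53 KO vehicle. In WT cells it stood at 112, 115, 122 and 125 CPM with GCN2iB, against 101, 97.7, 101 and 96.1 CPM with vehicle. The GCN2iB libraries lay above the vehicle libraries in p53 KO cells and in WT cells alike, without overlap. CDKN1C was barely detected, at 1.15 to 2.84 CPM over the 16 libraries, and all 4 groups overlapped.

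CDKN2A, the gene of p16INK4a and p14ARF, was at 33.2, 37.2, 35.1 and 50.5 CPM in p53 KO GCN2iB, against 24.1, 29.8, 27.4 and 32.9 CPM in p53 KO vehicle. In WT cells it was at 27.1, 30.5, 32.0 and 35.6 CPM with GCN2iB, against 17.7, 17.8, 17.9 and 21.3 CPM with vehicle. WT vehicle was the lowest group and overlapped with none of the others. WT GCN2iB overlapped with p53 KO vehicle and with p53 KO GCN2iB, which were apart from each other. The antisense gene CDKN2B-AS1 covers 341 bases (7.9%) of CDKN2A exons and drew 812 counts in all, against 15423 for CDKN2A.

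CDKN2B, which encodes p15INK4b, a mediator of arrest by TGF-β, was scarce and followed genotype. Its level was 11.2, 12.2, 12.1 and 11.6 CPM in p53 KO GCN2iB, against 9.27, 7.75, 8.15 and 9.26 CPM in p53 KO vehicle. In WT cells it was 4.41, 3.83, 4.43 and 5.38 CPM with GCN2iB, against 3.64, 3.86, 2.77 and 3.84 CPM with vehicle. Every p53 KO library lay above every WT library, and the WT groups overlapped. CDKN2B-AS1 overlaps the span of CDKN2B but 0 bases of its exons.

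CDKN2C and CDKN2D followed treatment more than genotype. CDKN2C stood at 95.5, 104, 92.7 and 121 CPM in p53 KO GCN2iB, against 63.4, 70.1, 65.5 and 75.1 CPM in p53 KO vehicle. In WT cells CDKN2C stood at 83.5, 96.1, 89.6 and 95.1 CPM with GCN2iB, against 48.0, 56.4, 53.5 and 54.8 CPM with vehicle. All GCN2iB libraries, of either genotype, were above all vehicle libraries. CDKN2D was at 37.2, 43.5, 41.5 and 51.7 CPM in p53 KO GCN2iB, against 18.7, 22.5, 20.9 and 24.2 CPM in p53 KO vehicle. In WT cells CDKN2D was at 32.7, 36.9, 37.0 and 36.4 CPM with GCN2iB, against 14.4, 16.2, 15.8 and 16.4 CPM with vehicle. Again no GCN2iB library fell among the vehicle libraries, and within each treatment all p53 KO libraries were above all WT libraries, though narrowly under GCN2iB.

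**Figure D1:**
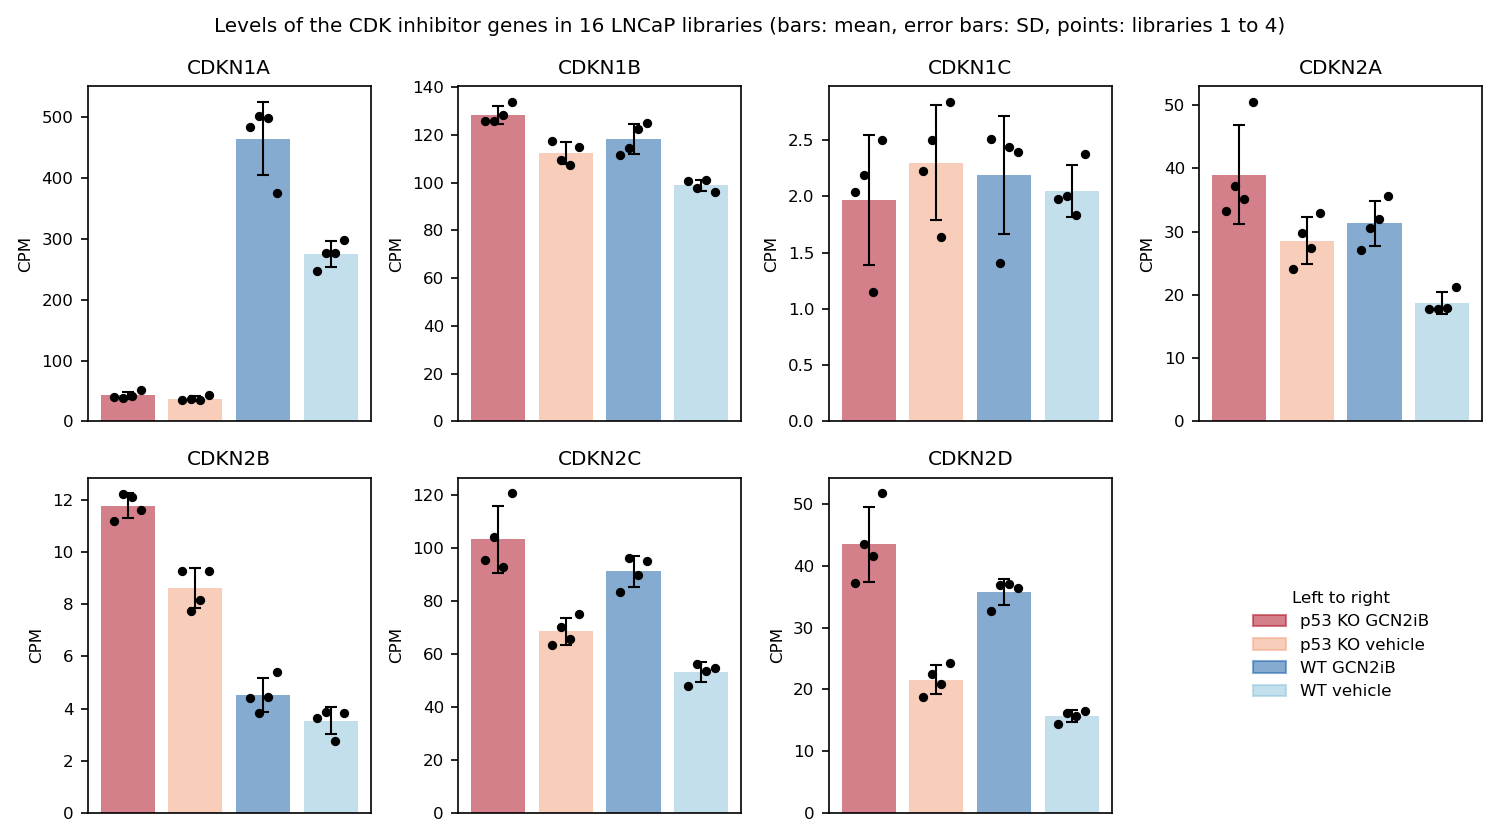
Level of each CDK inhibitor gene (CPM, linear axes from 0, a separate scale per gene) in p53 KO GCN2iB, p53 KO vehicle, WT GCN2iB and WT vehicle. Bars are means, error bars SD over 4 libraries and points the libraries. CDKN1A separates by genotype, CDKN2B is higher in all p53 KO libraries, and CDKN2C and CDKN2D are higher in all GCN2iB libraries.

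Levels of different genes were compared per kilobase of merged exons. Summed over the family they came to 132.5 ± 12.6 CPM per kb in p53 KO GCN2iB and 96.9 ± 5.54 in p53 KO vehicle, against 254.8 ± 17.3 in WT GCN2iB and 157.7 ± 8.13 in WT vehicle (SD, n = 4 each). CDKN1A made up 10.6% ± 0.64 of the sum in p53 KO GCN2iB and 12.7% ± 0.55 in p53 KO vehicle, against 59.6% ± 4.24 in WT GCN2iB and 57.0% ± 1.47 in WT vehicle. CDKN2D made up 21.8% ± 1.13 in p53 KO GCN2iB and 14.8% ± 1.02 in p53 KO vehicle, against 9.36% ± 0.80 in WT GCN2iB and 6.62% ± 0.12 in WT vehicle. In p53 KO cells the order by level per kb was CDKN1B, CDKN2C, CDKN2D, CDKN1A, CDKN2A, CDKN2B and CDKN1C. There CDKN2C and CDKN2D overlapped under GCN2iB, as did CDKN2D and CDKN1A under vehicle. In WT cells the order was CDKN1A, CDKN1B, CDKN2C, CDKN2D, CDKN2A, CDKN2B and CDKN1C, the last pair overlapping. With the longest transcript as the length, an alternative chosen after the data were seen, CDKN2A moved above CDKN1A in p53 KO cells and above CDKN2D in both vehicle groups. CDKN1A also moved above CDKN2D in p53 KO vehicle, and CDKN1C above CDKN2B in WT vehicle.

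**Figure D2:**
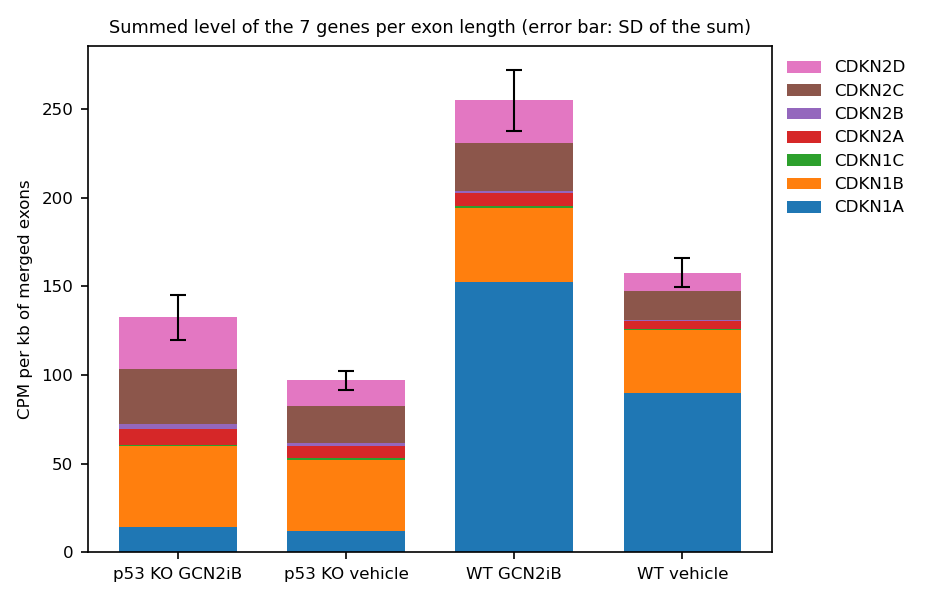
Mean level per kilobase of merged exons (CPM per kb), stacked over the 7 genes, in p53 KO GCN2iB, p53 KO vehicle, WT GCN2iB and WT vehicle. Error bars are the SD of the sum over 4 libraries. The CDKN1A segment is the largest in both WT groups and a small one in both p53 KO groups.

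The first question was how the family differed between p53 KO and WT cells. Under vehicle, CDKN1A averaged 37.5 ± 3.73 CPM in p53 KO cells, against 274.6 ± 21.1 CPM in WT cells (SD, n = 4 each), a 7.33-fold lower level. Its log2 change was -2.87 (SE 0.10, edgeR quasi-likelihood test with Benjamini-Hochberg adjustment, adjusted p = 1.23e-14). It was 1 of 7 members called lower, where 12.1% of all 18549 tested genes were. Higher in p53 KO cells were 5 of 7 members, where 9.63% of tested genes were. These were CDKN2B (2.44-fold, adjusted p = 1.79e-08), CDKN2A (1.53-fold, 0.00081), CDKN2D (1.37-fold, 0.000989), CDKN2C (1.29-fold, 0.0018) and CDKN1B (1.14-fold, 0.0182). For CDKN1C the log2 difference was 0.16, with a 95% interval of -0.27 to 0.58. The groups did not overlap for 6 of 7 members, against 22.7% of tested genes. The median log2 change of the family was 0.36, against 0.01 over all tested genes. With library totals as the only scaling, the split of called genes moved to 2467 higher and 1593 lower, against 1787 and 2238, and the 6 calls in the family kept their direction. The CDKN1B call was lost without WT vehicle replicate 2 or 4 or p53 KO vehicle replicate 4 (adjusted p up to 0.0588), and with no filter beyond 1 count (0.102).

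Under GCN2iB, CDKN1A averaged 42.9 ± 5.96 CPM in p53 KO cells and 464.2 ± 60.1 CPM in WT cells, a 10.8-fold lower level (log2 change -3.43, SE 0.11, edgeR, adjusted p = 1.9e-15). No tested gene had a smaller p in this comparison, and its log2 change was the 26th largest of 8558 genes that pointed down. Without WT GCN2iB replicate 4 the log2 change was -3.55. CDKN1A was again 1 of 7 members called lower (11.2% of tested genes), and 2 of 7 were called higher (12.7%). CDKN2B was 2.59-fold higher (log2 change 1.37, SE 0.11, adjusted p = 4.02e-09) and CDKN2D 1.22-fold higher (log2 change 0.28, SE 0.09, adjusted p = 0.0224). The CDKN2D call was lost without any 1 of the 4 WT GCN2iB libraries (adjusted p = 0.0546 to 0.103) or without p53 KO GCN2iB replicate 4 (log2 change 0.19, adjusted p = 0.0931). CDKN2A (log2 difference 0.32, 95% interval 0.07 to 0.56, adjusted p = 0.0532), CDKN2C (0.18, 0.02 to 0.34, adjusted p = 0.1) and CDKN1B (0.12, 0.00 to 0.23, adjusted p = 0.13) did not pass. CDKN2A passed without WT GCN2iB replicate 4 (edgeR, adjusted p = 0.0398) or p53 KO GCN2iB replicate 1 (0.0335). It also passed with library totals as the only scaling (log2 difference 0.33, edgeR, adjusted p = 0.0247) and with no filter beyond 1 count (0.30, 0.00469). Without p53 KO GCN2iB replicate 4 the log2 difference was 0.17 for CDKN2A (adjusted p = 0.218) and 0.097 for CDKN2C (0.341), and without WT GCN2iB replicate 1 it was 0.12 for CDKN2C (0.34) and 0.069 for CDKN1B (0.432). The groups did not overlap for 4 of 7 members, against 25.1% of tested genes. The genotype comparisons share their libraries with the treatment comparisons, since each group enters one of each.

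The second question was what GCN2iB did. In WT cells 6 of 7 members rose, where 11.6% of tested genes did, and 0 fell (13.6%). CDKN2D rose most, to 35.7 ± 2.03 CPM with GCN2iB, against 15.7 ± 0.92 CPM with vehicle, a 2.27-fold change (log2 1.18, SE 0.09, edgeR, adjusted p = 6.24e-09). It had the 103rd largest log2 change of 8608 genes that pointed up. CDKN2C (1.71-fold, adjusted p = 3.5e-07), CDKN1A (1.69-fold, 7.61e-06), CDKN2A (1.67-fold, 0.000142), CDKN2B (1.28-fold, 0.0343) and CDKN1B (1.20-fold, 0.00143) also rose. CDKN1C differed by 0.10 on the log2 scale, with a 95% interval of -0.33 to 0.53. The groups did not overlap for 5 of 7 members, against 26.0% of tested genes, and the family's median log2 change was 0.74, against -0.03 over all tested genes. Without WT GCN2iB replicate 4 the CDKN1A log2 change was 0.86 in place of 0.76. The CDKN2B call was lost without that library (log2 0.28, adjusted p = 0.13) or without WT vehicle replicate 3 (0.27, 0.122), with library totals as the only scaling (adjusted p = 0.0514), in voom (0.0502) and without replicate 4 of GCN2iB in both genotypes (0.149).

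In p53 KO cells 5 of 7 members rose with GCN2iB, where 11.4% of tested genes did, and 0 fell (8.71%). CDKN2D reached 43.5 ± 6.08 CPM with GCN2iB, against 21.6 ± 2.34 CPM with vehicle, a 2.02-fold change (log2 1.01, SE 0.09, edgeR, adjusted p = 5.07e-08). It had the 61st largest log2 change of 8920 genes that pointed up. CDKN2C (1.51-fold, adjusted p = 1.35e-05), CDKN2A (1.37-fold, 0.00895), CDKN2B (1.36-fold, 0.00416) and CDKN1B (1.14-fold, 0.0158) rose as well. CDKN1A did not pass, at 42.9 ± 5.96 CPM with GCN2iB against 37.5 ± 3.73 CPM with vehicle (log2 difference 0.20, 95% interval -0.01 to 0.40, adjusted p = 0.183). Its log2 difference was 0.091 without p53 KO GCN2iB replicate 4 and 0.12 with library totals as the only scaling. CDKN1C differed by -0.17 (-0.60 to 0.25). The groups did not overlap for 5 of 7 members, against 21.7% of tested genes, and the family's median was 0.45, against -0.01 over all tested genes. Without p53 KO GCN2iB replicate 4 the CDKN2D log2 change was 0.92 (adjusted p = 1.71e-08) and that of CDKN2A was 0.30 (adjusted p = 0.0317) in place of 0.45. With library totals as the only scaling, called genes split into 1401 higher and 2672 lower, against 2119 and 1615, and the CDKN1B call was lost (adjusted p = 0.116). The CDKN1B call was also lost without p53 KO vehicle replicate 2 (0.052) or 3 (0.0616), and with no filter beyond 1 count (0.097).

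**Figure D3:**
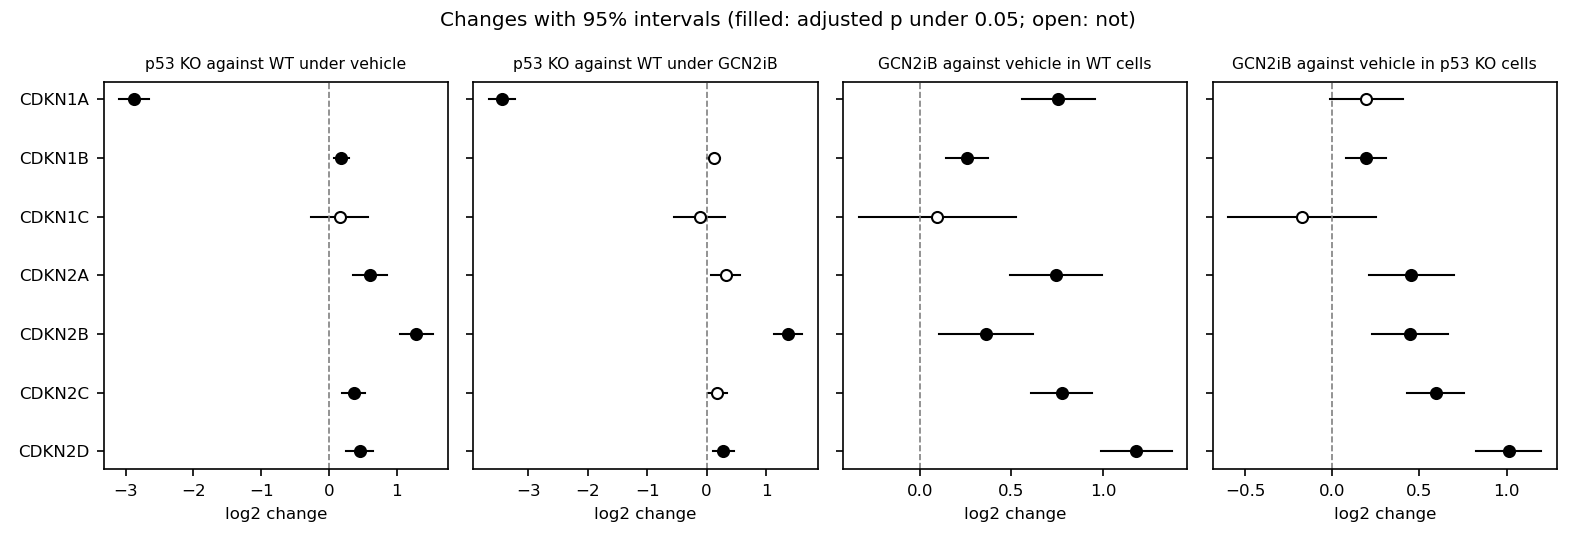
Log2 change of each gene with its 95% interval in the 4 comparisons, p53 KO against WT under vehicle and under GCN2iB and GCN2iB against vehicle in WT and in p53 KO cells. Filled points passed an adjusted p of 0.05, and the horizontal scale differs between panels. CDKN1A lies far to the left in both genotype panels, and CDKN2D is the rightmost point in both treatment panels.

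CDKN1A and CDKN2D were then set against each other within each library. A ratio within a library removes the scaling between libraries, except through the 1 CPM added to each gene. The log2 ratio of CDKN1A to CDKN2D, with 1 CPM added to each, was 0.098, -0.17, 0.0 and -0.0008 in p53 KO GCN2iB, against 0.89, 0.66, 0.73 and 0.81 in p53 KO vehicle. In WT cells it was 3.84, 3.73, 3.72 and 3.33 with GCN2iB, against 4.01, 4.00, 4.05 and 4.10 with vehicle. The 4 groups formed 4 ranges without overlap, and the ratio was lower in p53 KO than in WT cells and lower with GCN2iB than with vehicle. The mean ratio was lower by 3.27 in p53 KO than in WT cells under vehicle (log2 difference -3.27) and by 3.67 under GCN2iB (-3.67). GCN2iB changed it by -0.79 in p53 KO cells and by -0.39 in WT cells. With a pseudocount of 5 the change in WT cells was -0.24. Each of these 4 comparisons gave p = 0.0286 in a two-sided exact permutation test (adjusted p = 0.0286 over the 4), the smallest that 4 against 4 libraries allow. The log2 change with GCN2iB was thus larger for CDKN2D than for CDKN1A in both genotypes, while in p53 KO cells CDKN1A was lower and CDKN2D higher than in WT cells.

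**Figure D4:**
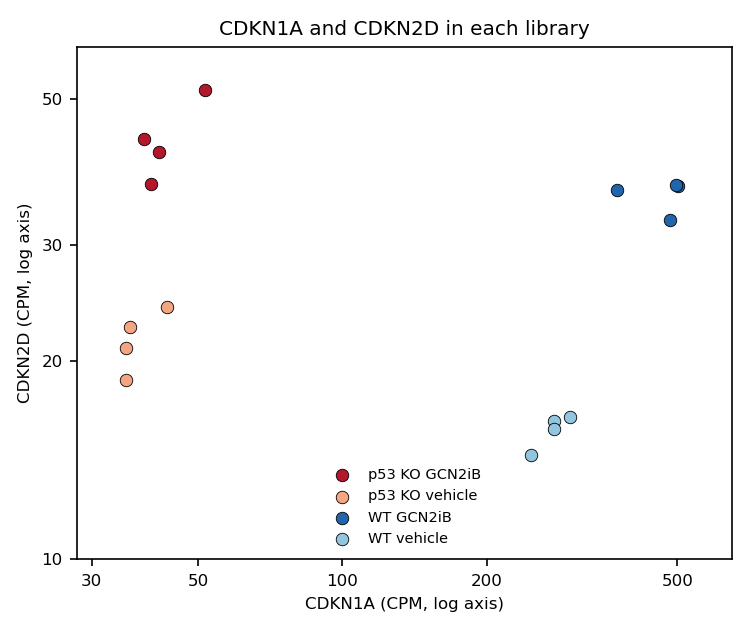
CDKN2D against CDKN1A (CPM, both axes logarithmic), 1 point per library, in p53 KO GCN2iB, p53 KO vehicle, WT GCN2iB and WT vehicle. Genotype separates the libraries along CDKN1A and GCN2iB separates them along CDKN2D. WT GCN2iB replicate 4 is the point at 375 CPM of CDKN1A.

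Whether the response to GCN2iB differed between p53 KO and WT cells was tested as an interaction. The difference (p53 KO minus WT) was -0.56 for CDKN1A on the log2 scale (SE 0.14, 95% interval -0.85 to -0.27), with an unadjusted p of 0.000562 and an adjusted p of 0.286 in edgeR. It did not pass over all genes there. It passed without p53 KO GCN2iB replicate 4 (-0.67, adjusted p = 0.0329) and without replicate 4 of GCN2iB in both genotypes (-0.76, 0.00115). It also passed with no filter on low counts (-0.58, 0.000191) and in DESeq2 (-0.58, 0.0487). With library totals as the only scaling it did not pass (-0.60, edgeR, adjusted p = 0.14), nor in the other settings tried. With each library left out in turn the adjusted p ran from 0.0329 to 0.594, passing only without p53 KO GCN2iB replicate 4. For CDKN2D the difference was -0.17 (SE 0.13, 95% interval -0.44 to 0.10, edgeR, adjusted p = 0.723). In total 0 of 7 members were called and 1, CDKN1A, had an unadjusted p under 0.05. Of the others, 5 had a negative estimate with an interval that included 0, and CDKN2B had an estimate of 0.09 (-0.25 to 0.42). Over all tested genes 0.00539% were called, which is 1 gene, SESN2, a p53 and stress-response target (-0.74, adjusted p = 0.00142), and 1754 had an unadjusted p under 0.05. Under DESeq2 38 genes were called.

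The genes whose levels ran most like CDKN1A over the 16 libraries were PHLDA3 (Pearson r = 0.996), BTG2 (0.995), DDB2 (0.991), MAGEA1 (0.989) and FDXR (0.987), among 10595 eligible genes. All but MAGEA1 are on the list of p53 targets. PHLDA3 averaged 4.62 ± 1.65 CPM in p53 KO GCN2iB and 3.95 ± 0.59 CPM in p53 KO vehicle, against 143 ± 19.4 CPM in WT GCN2iB and 79.3 ± 11.4 CPM in WT vehicle. Most like CDKN2D were PIMREG (r = 0.991), its own relative CDKN2C (0.989), BIRC5 (0.989), CKS1B (0.987) and HIRIP3 (0.987). BIRC5, which encodes survivin, a mitotic protein, averaged 266 ± 19.8 CPM in p53 KO GCN2iB and 174 ± 5.81 CPM in p53 KO vehicle, against 237 ± 5.02 CPM in WT GCN2iB and 155 ± 3.16 CPM in WT vehicle. Within the family, CDKN2A ran with CDKN2C (r = 0.937), CDKN2B ran against CDKN1A (r = -0.888), and CDKN1A and CDKN2D were nearly unrelated (r = -0.147). These correlations describe libraries that share 4 groups, whose differences set most of each value.

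Most markers of proliferation rose with GCN2iB, as did the INK4 genes and CDKN1B in both genotypes and CDKN1A in WT cells. Among all tested genes, 11.4% rose and 8.71% fell with GCN2iB in p53 KO cells, and 11.6% rose and 13.6% fell in WT cells. Of 20 markers listed, 17 rose and 0 fell in p53 KO cells, and 16 rose and 0 fell in WT cells. Their summed level was 4200 to 4353 CPM in p53 KO GCN2iB, against 2880 to 3186 CPM in p53 KO vehicle, and 4193 to 4402 CPM in WT GCN2iB, against 3180 to 3356 CPM in WT vehicle. Among them RRM2, a subunit of ribonucleotide reductase, was 1.53-fold higher with GCN2iB in p53 KO cells and 1.37-fold higher in WT cells. Their part in the rise of CDKN2C and CDKN2D was not tested, and in RNA of whole cultures more cells in a phase and more RNA per cell cannot be told apart. Under vehicle, 3 of the 20 were higher in p53 KO than in WT cells (9.63% of all tested genes) and 7 lower (12.1%). MCM3, a subunit of the replicative helicase, was 1.36-fold lower in p53 KO cells.

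Of 11 tested cyclins and kinases that the inhibitors bind, 7 rose with GCN2iB in p53 KO cells (11.4% of all tested genes) and 6 in WT cells (11.6%). In either genotype 0 fell (8.71% in p53 KO cells and 13.6% in WT cells). CDK4, the main partner of INK4 proteins, was 1.47-fold higher with GCN2iB in each genotype (edgeR, adjusted p = 9.61e-05 in p53 KO cells and 8.15e-05 in WT cells). CCNA2, the cyclin A of S phase and G2, rose 1.66-fold in p53 KO cells and 1.56-fold in WT cells. Under vehicle, 3 of the 11 were higher in p53 KO than in WT cells (9.63% of all tested genes) and 4 lower (12.1%). CDK6, the other INK4 partner, was 2.70-fold higher, at 7.38 CPM in p53 KO cells against 2.73 CPM in WT cells, whereas CCND1 was 1.25-fold lower and CDK4 1.23-fold lower. Of 13 pocket protein and E2F genes, 4 rose and 1 fell with GCN2iB in p53 KO cells and 2 rose and 0 fell in WT cells, where 11.4% of all tested genes rose and 8.71% fell in p53 KO cells, and 11.6% rose and 13.6% fell in WT cells. E2F1 rose by 1.39-fold in p53 KO cells and 1.56-fold in WT cells.

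Of 14 genes listed for ubiquitin ligase subunits and cofactors that degrade CIP/KIP proteins, 6 rose (11.4% of all tested genes) and 0 fell (8.71%) with GCN2iB in p53 KO cells. In WT cells 7 rose (11.6%) and 1 fell (13.6%). The list includes PCNA, a cofactor and not a ligase subunit, which is also among the proliferation markers. PCNA rose 1.39-fold in p53 KO cells and 1.31-fold in WT cells. CKS1B, which lets the ligase SCF-SKP2 bind p27, rose 1.67-fold in p53 KO cells and 1.88-fold in WT cells. DTL, which directs p21 to a CUL4 ligase, rose 1.77-fold in p53 KO cells and 1.54-fold in WT cells. Of 25 transcription factors and repressors of the inhibitor genes, 4 were higher and 4 lower in p53 KO than in WT cells under vehicle, shares not far from those of all tested genes (9.63% higher and 12.1% lower). MYC, a repressor of CDKN1A and CDKN2B, was 1.52-fold lower at 143 CPM in p53 KO cells, against 218 CPM in WT cells (edgeR, adjusted p = 2.77e-08). ID1, known as a repressor of CDKN2A, was 1.97-fold higher and KLF4, an activator of CDKN1A, 1.46-fold higher. TP73, also on the list, was 1.465-fold lower, at 6.23 CPM in p53 KO cells against 9.09 CPM in WT cells. With GCN2iB the polycomb gene EZH2, a repressor of the CDKN2A locus, rose 1.31-fold in p53 KO cells and 1.19-fold in WT cells.

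Genes beside the family members did not all share their changes. Of 15 tested neighbours and antisense partners, 3 were higher and 3 lower in p53 KO than in WT cells under vehicle, not far from the 9.63% and 12.1% of all tested genes. With GCN2iB 5 rose (11.4% of all tested genes) and 2 fell (8.71%) in p53 KO cells. In WT cells 4 rose (11.6%) and 2 fell (13.6%). At chromosome 9, CDKN2B-AS1 was 1.60-fold higher at 1.73 CPM in p53 KO vehicle, against 1.10 CPM in WT vehicle (edgeR, adjusted p = 0.028). MTAP, the methylthioadenosine phosphorylase gene on the other side of CDKN2A, had a log2 difference of 0.02 there (adjusted p = 0.895). MTAP fell with GCN2iB, 1.20-fold in p53 KO cells and 1.36-fold in WT cells, where CDKN2A and CDKN2B rose. Beside CDKN2D, KRI1 rose 1.33-fold in p53 KO cells and 1.35-fold in WT cells, and AP1M2 had log2 differences of 0.05 in p53 KO cells and -0.17 in WT cells that did not pass. Beside CDKN1C, KCNQ1 was 1.71-fold lower in p53 KO than in WT cells under vehicle. DMRTA1, PANDAR, DINOL and RAB44 had too few counts to be tested.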

How the data were processed

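The values are unnormalized read counts, deposited by the authors for 62754 genes in 16 libraries. Per the submitters' processing notes, the build was GRCh38 and the tools were featureCounts, HISAT2, Trim Galore and DESeq2, listed without versions or order. Neither the annotation release nor the setting for strand is given in the sources used here. All columns were matched to samples by group and replicate. Symbols were found for 42343 genes and positions in GENCODE release 29 for 58261.

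Models were fitted with edgeR 4.0.16 (R 4.3.3), and alternatives used DESeq2 1.42.0 and the voom method of limma 3.58.1. Python 3.11.15 with pandas 2.3.3, scipy 1.17.1 and matplotlib 3.10.9 served for summaries, permutation tests and plots. The filterByExpr rule left 18549 genes. Totals were scaled by TMM, and a robust quasi-likelihood model with 1 term per group was fitted to all 16 libraries. Tests were two-sided, with Benjamini-Hochberg adjustment over all tested genes of a comparison and a threshold of 0.05, at which a gene is called. The scripts were tested on simulated data. CPM values use the TMM-scaled totals. A mean ± SD is over 4 libraries. The ratio of CDKN1A to CDKN2D used CPM with a pseudocount of 1.

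All 7 members are named, with MDM2, EIF2AK4 and ATF4 as checks, up to 4 called genes of each list by smallest adjusted p, all listed neighbours, and the 5 genes most correlated with CDKN1A and with CDKN2D among those with a symbol and a mean of at least 5 CPM. The text gives part of them, and some named genes are not reported here. The members and the 172 symbols of the lists were chosen with earlier results of these data known.

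For scaling, size factors of DESeq2 or plain library totals were tried. For filtering, any gene with 1 count or only genes averaging at least 50 counts were kept. The test was replaced by that of DESeq2 or by voom. Further alternatives were a fit to just the groups compared, a block for replicate number, removal of trends on GC content and length, pseudocounts of 0.5 and 5, omission of replicate 4 of GCN2iB in both genotypes, and each library left out in turn.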

Additional observations from a re-analysis of the deposited data

Results flagged for a closer look

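In 5 of 28 sets of 4 libraries (the 7 genes in 4 groups), the highest or lowest library lay apart from the others by Dixon's test at the 95% level. Chance gives about 1 in 20. CDKN1A was lowest in WT GCN2iB replicate 4, at 374.9 CPM, which of the WT GCN2iB libraries is the one nearest to p53 KO on the first principal component. CDKN1A was highest in p53 KO vehicle replicate 4, at 43.06 CPM. CDKN2A was highest in WT vehicle replicate 4, at 21.28 CPM. CDKN2D was lowest in WT GCN2iB replicate 1, at 32.72 CPM. CDKN1C was lowest in WT GCN2iB replicate 2, at 1.412 CPM. Of these 5 libraries 3 bear the number 4.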

How the results depend on the processing

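Counts of called genes between genotypes under vehicle (4025) and with GCN2iB in p53 KO cells (3734) were 6251 and 5982 with the replicate block and GC and length trends removed. The interaction, with 1 gene called, gave 2 with DESeq2 size factors, 38 in DESeq2, 12 with GC and length trends removed, 4 with library totals, 6 at a mean of at least 50 counts, 47 with no filter, 61 with the replicate block, 185 with block and trends, 6 without replicate 4 of GCN2iB in both genotypes, and 1 to 34 with 1 library left out. The CDKN1A interaction was -0.58 with no filter and -0.58 in DESeq2, both called, and -0.76 without both replicate 4 libraries. With 1 library left out it was -0.67 to -0.50 (edgeR, adjusted p = 0.0329 to 0.594). CDKN2D in p53 KO against WT under GCN2iB was 0.19 to 0.33 with 1 library left out and 0.195 (adjusted p = 0.118) without both replicate 4 libraries. The ratio of CDKN1A to CDKN2D kept its direction in every alternative run, with -3.08 and -3.53 between genotypes under vehicle and GCN2iB and -0.69 and -0.24 with GCN2iB in p53 KO and WT cells at a pseudocount of 5. With 1 library left out it differed by -3.31 to -3.23 and -3.78 to -3.61 between genotypes under vehicle and GCN2iB, and by -0.83 to -0.74 and -0.45 to -0.28 with GCN2iB in p53 KO and WT cells, at p = 0.0571 in the exact permutation test, the smallest that 4 against 3 allow. Without both replicate 4 libraries it was -3.79 between genotypes under GCN2iB, and -0.80 and -0.28 with GCN2iB in p53 KO and WT cells. As a replicate block the values were -3.27 and -3.67 between genotypes under vehicle and GCN2iB, and -0.79 and -0.39 with GCN2iB in p53 KO and WT cells, at p = 0.125 in the exact permutation test, the smallest for 4 pairs. CDKN1C changed sign between p53 KO and WT under GCN2iB without p53 KO GCN2iB replicate 3 (0.0052, in a range of -0.29 to 0.0052 with 1 library left out), and with GCN2iB in WT cells with GC and length trends removed (-0.040) or these with the block (-0.053). Of 24 pairs of libraries with the same number in different groups 13 had a residual correlation above 0.1. The median was 0.119 for the same number, against -0.047 for other numbers, and 11 of 16 libraries correlated best with their own number. The labels do not say that the numbers pair samples, and the main fit has no term for them. Whether libraries of the same number belong together was not tested. With the block, CDKN2A (adjusted p = 0.000406) and CDKN2C (0.00998) were called between genotypes under GCN2iB. GC and length trends removed gave both calls too (5.53e-05 and 0.000563). The causes were not tested. Low counts limit what can be said of CDKN1C and CDKN2B-AS1.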
